A study of Homo sapiens with 8 samples.

Results

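The SERPINA cluster of distal chromosome 14 is a run of neighbouring genes for secreted serpins, and 7 of them are described here: SERPINA10, SERPINA6, SERPINA1, SERPINA11, SERPINA4, SERPINA5 and SERPINA3. They were taken by symbol from a table of 58735 genes, where each matched 1 entry, and 6 of the 7 had a mean of at least 1 FPKM (a fragment count put on a common scale for the gene's length and the library's depth) over all libraries and entered the test across 11620 genes. RNA came from HepG2, an established human hepatocellular carcinoma line. The 4 control libraries were of HepG2 cells labelled WT that were infected with a control lentivirus, and the 4 DNMT3A libraries were of HepG2 cells given a DNMT3A-overexpressing virus; DNMT3A is a methyltransferase that sets new methyl marks on DNA. Cells of both groups thus carried a lentivirus, and the library names of both groups carry EGFP. Which promoter drives the transgene, the time after infection and whether the cells were 1 clone or a pool are points on which the labels say nothing.

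Serpins are inhibitors that present a reactive loop to a protease as bait. Cleavage of the loop springs it into the body of the serpin and traps the protease in an inactive complex. The genes of this cluster arose by duplication, are expressed mainly in hepatocytes and are studied as an example of a jointly controlled liver locus. Their products differ in what they do: some restrain proteases of leukocytes or of coagulation, and SERPINA6 has become a hormone carrier without inhibitory activity. SERPINA1 and SERPINA3 encode acute phase proteins.

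DNMT3A itself was measured at 3.62, 3.89, 3.45 and 3.64 FPKM in control libraries 1 to 4 and at 9.75, 10.2, 8.51 and 7.26 FPKM in DNMT3A libraries 1 to 4. All DNMT3A libraries were above all controls (log2 fold change 1.09, limma adjusted p = 0.000122). Recovered library totals were 15911019 to 17677093 reads. Hepatocyte identity was checked on 9 markers, all of which passed the FPKM filter. Albumin (ALB) stood at 6188 ± 212 FPKM (SD, n = 4) in the controls and apolipoprotein A-I (APOA1) at 1210.0 ± 88.4 FPKM there. Neither of them passed the test (log2 0.0026 and 0.09). AFP, the fetal albumin relative, rose (log2 1.61), as did FGB and TTR. Among the controls TTR was low, at 5.14 to 7.85 FPKM. Of 5 markers of other cells, PTPRC was listed at 0 in every library and CD68, COL1A1 and PECAM1 were under the filter. LYZ, the lysozyme gene, was at 234 ± 32.6 FPKM among controls and 325 ± 13.9 FPKM among DNMT3A libraries (SD, n = 4; log2 fold change 0.48, limma adjusted p = 0.00812). The summed level of these 5 markers was 197 to 263 FPKM among controls and 314 to 345 FPKM among DNMT3A libraries, nearly all of it LYZ, and its part in the results was not tested.

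Of the 6 tested members 1 rose with DNMT3A, SERPINA5, and 0 fell, while 9.93% of all tested genes rose and 10.6% fell at limma's adjusted p under 0.05. The share of all tested genes called in either direction was 20.6%. A count of 1 among 6 cannot be told from that background. The median log2 fold change of the 6 was 0.07, beside -0.01 over all tested genes, and their fold changes ran from -0.11 for SERPINA10 to 0.38 for SERPINA5. The remaining gene, SERPINA3, was below the FPKM filter; its 4 DNMT3A libraries all lay above its 4 controls. A fold change here is the difference of mean log2(FPKM + 1), with control subtracted from DNMT3A, and intervals are limma's 95% intervals. The added 1 shrinks the changes of genes at a few FPKM. For DNMT3A, given as 1.09, the log2 of the ratio of group means was 1.29. Because the samples are bulk RNA, fewer cells that express a gene and less of its RNA per cell cannot be told apart.

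The levels spanned 3 orders of magnitude and kept the same order in all 8 libraries: SERPINA1, SERPINA5, SERPINA6, SERPINA11, SERPINA4, SERPINA10 and SERPINA3. FPKM is scaled by gene length, which here is the union of all annotated exons rather than the length of the RNA made. The number of annotated transcripts differs, from 1 for SERPINA11 to 20 for SERPINA1, so levels of different genes compare only roughly. SERPINA1 made up 77.3 to 81.2% of the summed FPKM of the 7 genes. The control ranges of the neighbours SERPINA5 (67.2 to 84.6 FPKM) and SERPINA6 (59.8 to 75.7 FPKM) overlapped, whereas those of every other pair of neighbours in this order did not. The summed level of the 7 genes was 933 ± 77.8 FPKM among controls and 996 ± 94.6 FPKM among DNMT3A libraries (SD, n = 4; two-sided exact permutation p = 0.4 over 70 assignments, of which the smallest possible is 0.0286).

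**Figure D1:**
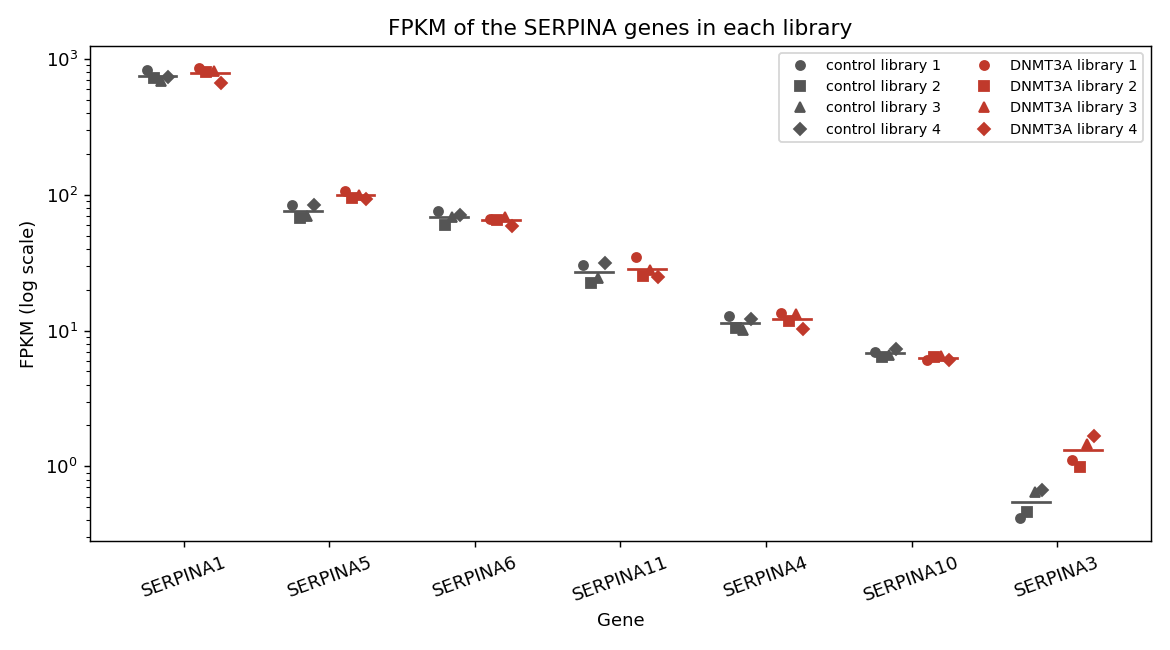
FPKM of each of the 7 genes (horizontal axis) in each library on a log scale (vertical axis), with controls in grey, DNMT3A libraries in red, 1 marker shape per library number and a line at each group's mean (n = 4). The groups separate for SERPINA5 (controls up to 84.6, DNMT3A libraries from 93.5 FPKM) and for SERPINA3 (up to 0.669 and from 0.993 FPKM), and overlap for the other 5 genes.

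SERPINA5 encodes protein C inhibitor, a heparin-binding serpin that acts on activated protein C and on several other proteases of plasma and secretions (ENSG00000188488, hg38 chromosome 14, 94561442 to 94593120, plus strand). Its level was 84.6, 67.2, 69.2 and 83.8 FPKM in control libraries 1 to 4 and 106, 95.3, 100.3 and 93.5 FPKM in DNMT3A libraries 1 to 4. Every DNMT3A library was above every control, as was so for 12.1% of all tested genes. The group means were 76.2 ± 9.27 and 98.8 ± 5.56 FPKM (SD, n = 4), a ratio of 1.30. The log2 fold change was 0.38 (interval 0.18 to 0.57, limma adjusted p = 0.0152). It rested on 4138 to 6978 reads per library. Leaving out each library in turn gave adjusted p from 0.0149 to 0.0495, so the gene stayed past the threshold in all 8 of those fits; without the FPKM filter the adjusted p was 0.0534 and the call was lost.

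SERPINA3 encodes alpha-1 antichymotrypsin, an acute phase inhibitor of cathepsin G and chymase (ENSG00000196136, hg38 chromosome 14, 94612377 to 94624055, plus strand). It was the lowest of the 7, at 0.414, 0.464, 0.643 and 0.669 FPKM in control libraries 1 to 4 and 1.12, 0.993, 1.47 and 1.67 FPKM in DNMT3A libraries 1 to 4. In reads this was 33 to 59 per control library and 91 to 147 per DNMT3A library. The groups did not overlap; among genes with a mean from 0.5 to under 1 FPKM, 8.56% were likewise higher in every DNMT3A library. The mean was 0.548 ± 0.128 FPKM among controls and 1.31 ± 0.312 FPKM among DNMT3A libraries (SD, n = 4), a ratio of 2.40. On the log2(FPKM + 1) scale, which understates the change of so low a gene, the difference was 0.57 (two-sided exact permutation p = 0.0286, no smaller value being possible with 70 assignments). Without a filter limma gave SERPINA3 an adjusted p of 0.0369, where 5.24% of genes were called, 2.66% higher and 2.58% lower. With a filter at a mean of 0.5 FPKM, chosen after its values were seen, the adjusted p was 0.0102, where 17.7% of genes were called, 8.78% higher and 8.91% lower. With voom on the recovered reads, also chosen then, the log2 fold change of SERPINA3 was 1.27 (limma adjusted p = 0.000615), where 22.1% of genes were called, 12.6% higher and 9.5% lower.

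Both of these genes overlap others on the same strand, so reads could be split or dropped by the authors' counting. SERPINA3 shares 1592 of its 5007 exon bases (31.8%) with AL049839.2, an annotated protein-coding gene that runs from 94592058 to 94624646 and so from within SERPINA5 to beyond the end of SERPINA3. AL049839.2 was at 0.427 ± 0.148 FPKM among controls and 0.447 ± 0.0558 FPKM among DNMT3A libraries (SD, n = 4; two-sided exact permutation p = 0.771). SERPINA5 shares 79 exon bases with AL049839.2 (2.09% of its own) and 53 with SERPINA4 (1.40%). The remaining 4 members share no exon base with another gene in the annotation of GENCODE release 29, whose exon unions equal the lengths in the table.

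The stretches upstream of the starts are shown for the 2 genes that were higher, SERPINA5 and SERPINA3, and for the 2 with negative fold changes, SERPINA6 and SERPINA10, because DNMT3A methylates cytosines in CpG. They are the parts of RefSeq's promoter windows (GRCh38.p14, 250 bases before to 50 after each start) that hold no annotated exon, written 5′ to 3′ on the gene's strand with each CpG in capitals. RefSeq's start of SERPINA5 lies inside the span that the table gives for the gene. DNA methylation was not analysed here.
SERPINA5, chr14:94581176-94581368, plus strand: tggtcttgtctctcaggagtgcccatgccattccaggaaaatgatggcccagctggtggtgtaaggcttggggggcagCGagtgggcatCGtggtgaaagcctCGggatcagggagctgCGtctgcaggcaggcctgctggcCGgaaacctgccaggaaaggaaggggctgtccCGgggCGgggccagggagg
SERPINA3, chr14:94612141-94612296, plus strand: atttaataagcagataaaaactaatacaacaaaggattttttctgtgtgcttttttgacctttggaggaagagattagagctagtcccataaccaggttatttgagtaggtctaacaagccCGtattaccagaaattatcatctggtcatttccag
SERPINA6, chr14:94323395-94323586, minus strand: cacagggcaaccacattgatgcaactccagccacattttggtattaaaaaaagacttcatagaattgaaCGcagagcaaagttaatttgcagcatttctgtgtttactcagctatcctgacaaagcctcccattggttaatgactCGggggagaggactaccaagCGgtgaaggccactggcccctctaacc
SERPINA10, chr14:94293272-94293518, minus strand: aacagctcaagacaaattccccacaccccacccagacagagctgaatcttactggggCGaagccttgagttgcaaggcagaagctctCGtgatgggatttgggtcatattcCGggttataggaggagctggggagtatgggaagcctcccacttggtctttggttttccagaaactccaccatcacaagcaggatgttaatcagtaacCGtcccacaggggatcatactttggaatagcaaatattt

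All 7 members had a RefSeq window, 9 in all, since SERPINA1 and SERPINA10 have 2 starts each. Each held fewer CpG than the median window, at percentiles from 11 for SERPINA11 to 48.3 for 1 start of SERPINA1; SERPINA5 was at percentile 43.6. The whole window of SERPINA5 held 9 CpG and that of SERPINA3 held 3, beside a median of 14 over 35116 windows. SERPINA6 had 4, SERPINA11 had 1, SERPINA4 had 5, SERPINA10 had 3 and 4, and SERPINA1 had 12 at the start with the lower coordinate and 8 at the other. The letters TTCNNNGAA, the spacing of STAT sites, were searched on both strands and occurred in 7.66% of windows and once each in those of SERPINA5, SERPINA6 and SERPINA11. TTGCNNAA, of C/EBP sites and searched likewise, occurred in 10.5% of windows and among the members in those of SERPINA10. The 2 windows of SERPINA10 overlap and share 1 match. No matches of the motifs overlapped, and a match is a description of letters only.

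SERPINA1 encodes alpha-1 antitrypsin, the main plasma inhibitor of neutrophil elastase, whose misfolding variants accumulate in the hepatocyte endoplasmic reticulum (ENSG00000197249, chromosome 14, 94376747 to 94390693, minus strand). It was at 826, 720.3, 682 and 741 FPKM in control libraries 1 to 4 and 851, 802, 818 and 665 FPKM in DNMT3A libraries 1 to 4. The ranges overlapped, since DNMT3A library 4 was the lowest of all 8. The means were 742 ± 60.7 and 784 ± 81.6 FPKM (SD, n = 4), with a log2 fold change of 0.08 (interval -0.13 to 0.28, limma adjusted p = 0.594). The interval thus reaches from a small fall to a rise of less than that estimated for SERPINA5.

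SERPINA6 encodes corticosteroid-binding globulin, the carrier of cortisol in plasma (chromosome 14, 94304248 to 94323394, minus strand). Its values were 75.7, 59.8, 68.7 and 71.3 FPKM in control libraries 1 to 4 and 66.7, 64.8, 69.1 and 59.1 FPKM in DNMT3A libraries 1 to 4. Lows were in control library 2 and DNMT3A library 4, and the groups overlapped. The log2 fold change was -0.08 (interval -0.26 to 0.10, limma adjusted p = 0.502). SERPINA10 encodes the protein Z-dependent inhibitor of activated factor X (chromosome 14, 94280455 to 94293271, minus strand). It was at 7.0, 6.41, 6.63 and 7.36 FPKM in control libraries 1 to 4 and 6.09, 6.42, 6.52 and 6.09 FPKM in DNMT3A libraries 1 to 4. It varied least of the 7 within groups, with a coefficient of variation of 6.10% in the controls and 3.53% in the DNMT3A libraries. Its log2 fold change was -0.11 (interval -0.24 to 0.02, limma adjusted p = 0.209), and 1 control, library 2, lay within the range of the DNMT3A libraries.

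SERPINA4 encodes kallistatin, an inhibitor of tissue kallikrein (chromosome 14, 94561091 to 94569913, plus strand). Its values were 12.9, 10.4, 10.1 and 12.1 FPKM in control libraries 1 to 4 and 13.4, 11.7, 13.2 and 10.3 FPKM in DNMT3A libraries 1 to 4. The groups overlapped across nearly their whole ranges (log2 fold change 0.09, interval -0.13 to 0.30, limma adjusted p = 0.561). SERPINA11 (chromosome 14, 94442464 to 94452790, minus strand) was at 30.3, 22.6, 24.3 and 31.2 FPKM in control libraries 1 to 4 and 34.7, 25.4, 28.0 and 24.7 FPKM in DNMT3A libraries 1 to 4. Among the 6 tested members it varied most within groups, by 15.9% and 16.2% of the mean. Its log2 fold change of 0.06 (interval -0.23 to 0.35, limma adjusted p = 0.785) turned negative without control library 2 (-0.02) or DNMT3A library 1 (-0.04).

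**Figure D2:**
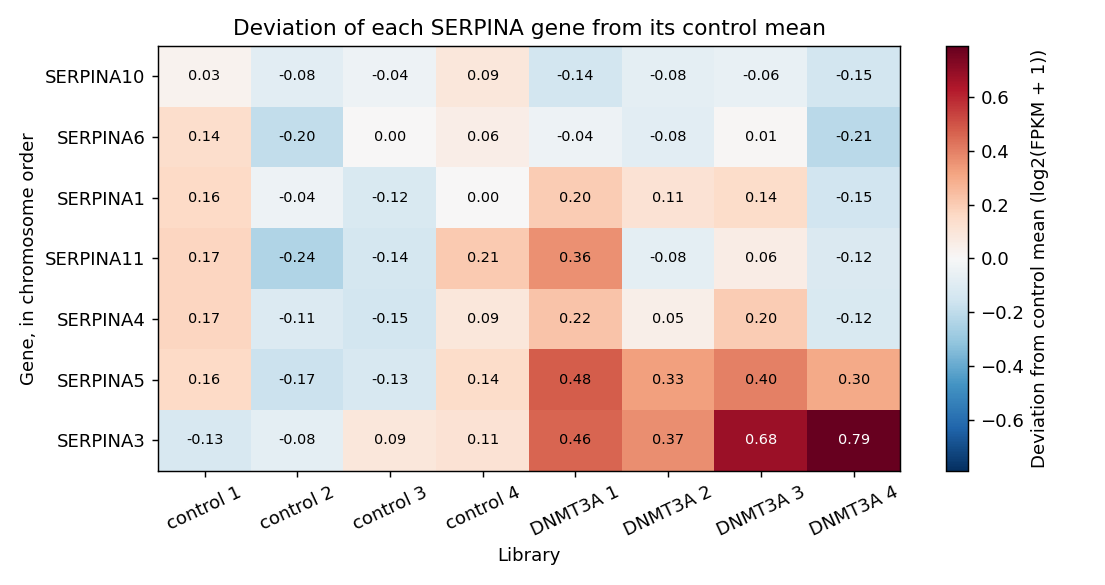
Deviation of each of the 7 genes (vertical axis, in chromosome order) from its own control mean on the log2(FPKM + 1) scale, in each library (horizontal axis), with red above and blue below the control mean. SERPINA5 lay 0.30 to 0.48 above its control mean in the DNMT3A libraries and SERPINA3 0.37 to 0.79 above. SERPINA10 lay 0.06 to 0.15 below its control mean in them, and the other 4 genes lay above it in some DNMT3A libraries and below it in others.

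Libraries of 1 group differed along the cluster. DNMT3A library 4 was the lowest of its group for all 6 tested members and the highest for SERPINA3. Of the 9 hepatocyte markers 3 were lowest and 0 highest in that library. DNMT3A library 2 was the lowest of its group for 6 of those 9 markers, but for 0 of the 6 members. Control library 2 was the lowest control for 4 of the 6 members, and control library 1 the highest for 4. The median deviation of the 6 members from the control mean was -0.14 in control library 2 and 0.16 in control library 1, and it was 0.21 in DNMT3A library 1 and -0.13 in DNMT3A library 4. Over all tested genes the median deviation was within 0.02 of 0 in each library. The fold changes of the 5 tested members that did not pass the test, from -0.11 to 0.09, were smaller in size than the members' shift in each of those 4 libraries.

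Ratios between members within a library do not depend on how the library was scaled. SERPINA5 stood at 1.12, 1.12, 1.01 and 1.17 times SERPINA6 in control libraries 1 to 4 and at 1.59, 1.47, 1.45 and 1.58 times in DNMT3A libraries 1 to 4. The group means of that ratio were 1.11 ± 0.0700 and 1.52 ± 0.0718 (SD, n = 4), so the groups lay apart by several times their spread. Relative to SERPINA4, with which it shares 53 exon bases, SERPINA5 was 6.45 to 6.92 times as high in the controls and 7.62 to 9.05 times in the DNMT3A libraries. Relative to SERPINA1 it was 0.0932 to 0.113 in the controls and 0.119 to 0.141 in the DNMT3A libraries. The groups did not overlap in any of these 3 ratios. SERPINA1 over SERPINA6, in contrast, was 9.93 to 12.0 in the controls and 11.3 to 12.8 in the DNMT3A libraries, which overlap. These ratios were chosen after the values were seen and are given without a test.

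**Figure D3:**
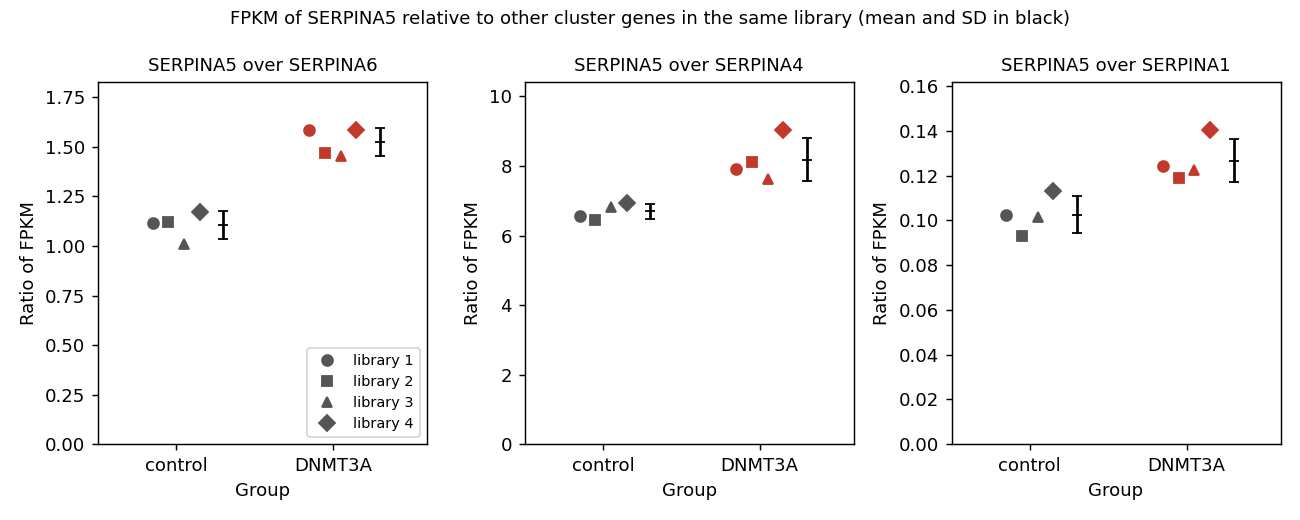
FPKM of SERPINA5 divided by that of SERPINA6, SERPINA4 and SERPINA1 in the same library (vertical axes from 0), by group, with 1 marker per library and the mean and SD (n = 4) in black. Every DNMT3A library lies above every control in each panel, from 1.45 against at most 1.17 for SERPINA6 to 0.119 against at most 0.113 for SERPINA1.

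Along the chromosome the fold changes did not form a uniform block. The 7 genes span 343.6 kb, from SERPINA10 at the low end to SERPINA3 at the high end. SERPINA10 and SERPINA6 had negative estimates, SERPINA1, SERPINA11 and SERPINA4 had estimates from 0.06 to 0.09, and SERPINA5 and SERPINA3 had the highest 2. SERPINA5 and SERPINA4 overlap at their starts in the table and had log2 fold changes of 0.38 and 0.09. SERPINA12, encoding the adipokine vaspin, lies between SERPINA11 and SERPINA4 and was at 2.98 ± 0.534 FPKM among controls and 3.54 ± 0.779 FPKM among DNMT3A libraries (SD, n = 4; log2 fold change 0.18, limma adjusted p = 0.364). Within 1 Mb on either side of the span, SERPINA12 included, 11 other genes were tested, of which 1 rose and 1 fell. Over all tested genes 9.93% rose and 10.6% fell, and counts of 1 among 11 cannot be told from that background. The median difference of the 11 was 0.08 on the log2 scale. IFI27L1, before the cluster, rose from 0.696 ± 0.170 to 1.40 ± 0.212 FPKM (SD, n = 4, log2 0.50, limma adjusted p = 0.011). Its mean over all libraries was 1.05 FPKM, so it passed the filter only through its DNMT3A libraries. It had 17 to 66 reads per library. CLMN, behind it, fell from 2.26 ± 0.159 to 1.63 ± 0.0972 FPKM (SD, n = 4; log2 -0.31, limma adjusted p = 0.0133). Among the rest before the cluster, OTUB2, DDX24 and PPP4R4 had log2 fold changes of 0.08, 0.10 and -0.03. Behind it, DICER1, SYNE3, SNHG10, SCARNA13 and GLRX5 had log2 fold changes of 0.03, -0.07, 0.21, 0.26 and -0.02, none past the threshold; SNHG10 passed it without control library 2 (limma adjusted p = 0.0473), and PPP4R4, DICER1, SCARNA13 and GLRX5 changed sign between settings.

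**Figure D4:**
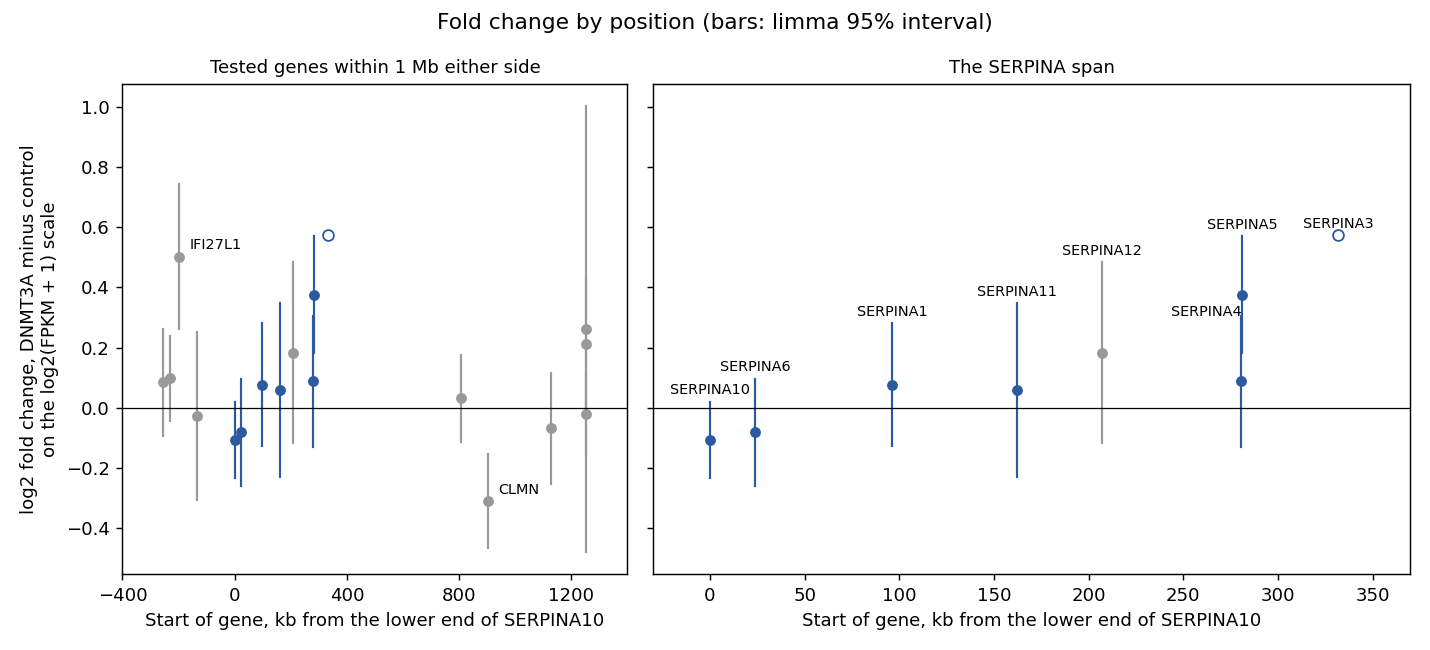
Log2 fold change (DNMT3A minus control, log2(FPKM + 1), vertical axis) against the position of each gene's lower end in kb from that of SERPINA10 (horizontal axis), for tested genes within 1 Mb either side (left) and for the span of the cluster (right), with the 7 members in blue, other genes in grey and bars for limma's 95% interval. SERPINA3 is an open circle because it was below the FPKM filter; SERPINA5 is the 1 member whose interval (0.18 to 0.57) excludes 0.

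The other SERPINA genes of the table did not pass the test or had almost no reads. SERPINA7, the thyroxine-binding globulin gene on chromosome X, was at 43.4 to 50.8 FPKM among controls and 44.3 to 52.9 FPKM among DNMT3A libraries (log2 fold change 0.07, interval -0.10 to 0.23, limma adjusted p = 0.573). SERPINA2 had 0 reads in each control and 0 or 1 in each DNMT3A library, SERPINA9 had 0 to 2 reads in any library, SERPINA13P at most 1, and SERPINA15P and SERPINA7P1 were listed at 0. Differences between groups were not detectable for these at this depth.

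The counts of the lists below stand beside the 9.93% of all tested genes that rose and the 10.6% that fell. Among other serpins of the liver, 0 of 13 tested genes rose and 3 fell. SERPINB1, an intracellular inhibitor of neutrophil proteases, fell from 32.4 ± 2.05 to 24.5 ± 2.68 FPKM (SD, n = 4; log2 -0.39, limma adjusted p = 0.0105). SERPINE2, or protease nexin 1, fell by 0.37 on the log2 scale (limma adjusted p = 0.00223). SERPINF1, the gene of pigment epithelium-derived factor, fell by 0.37 (limma adjusted p = 0.0254), a call lost without a filter (0.0881) and without control library 1, 2 or 4 (0.0545 to 0.0672). Neither of the 2 highest of the rest passed the test: AGT, angiotensinogen, which has the serpin fold without inhibiting a protease, stood at 556 ± 16.4 FPKM in controls (log2 0.01, changing sign between settings), and SERPINF2, alpha-2 antiplasmin, at 147 ± 14.6 FPKM (SD, n = 4; log2 0.09). The list's median log2 fold change was 0.01.

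Of 18 listed proteases and cofactors that serpins of this cluster are known to meet, 10 were tested, of which 0 rose and 4 fell; their median difference was -0.26 on the log2 scale, beside -0.01 over all tested genes, of which 9.93% rose and 10.6% fell. PROC, the gene of protein C and thus of a protease that the SERPINA5 product inhibits, was at 54.0, 48.6, 47.2 and 46.2 FPKM in control libraries 1 to 4 and at 36.5, 43.7, 37.8 and 30.5 FPKM in DNMT3A libraries 1 to 4. Every control was above every DNMT3A library, as in 13% of all tested genes. The log2 fold change of PROC was -0.40 (limma adjusted p = 0.0207), a call lost without a filter (0.0740) and on leaving out control library 1, control library 2 or DNMT3A library 1 (0.0507 to 0.0574). HGFAC, encoding hepatocyte growth factor activator, fell by 0.51 on the log2 scale (limma adjusted p = 0.00165). TMPRSS6, or matriptase-2, which restrains hepcidin, fell by 0.66 (limma adjusted p = 0.0063). TMPRSS2 fell by 0.34 (limma adjusted p = 0.0104). Prothrombin, F2, at 122 ± 9.65 FPKM in controls (SD, n = 4), and FURIN, a proprotein protease, did not pass the test (log2 -0.04, changing sign between settings, and -0.19).

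SERPINA1 and SERPINA3 are acute phase genes. Of the 15 tested genes of that list 4 rose, 3 fell and 8 missed the threshold. The list was not split by the direction that its genes take in an acute phase response, so these counts do not measure such a response. The rises were of the fibrinogen chains FGB, FGA and FGG and of TTR (log2 0.94 to 1.61). The falls were of ORM1, or orosomucoid (log2 -0.48, limma adjusted p = 0.031), the hepcidin gene HAMP (log2 -0.45, limma adjusted p = 0.00827) and haptoglobin, HP (log2 -0.27, limma adjusted p = 0.0289); these 3 were named after their values were seen. The highest of the rest, ALB and fetuin-A (AHSG), did not pass the test, with log2 fold changes of 0.0026 and 0.12; that of ALB changed sign when any of 5 libraries was left out. The call of ORM1 was lost without a filter (0.113) and on leaving out any of control libraries 1 to 3 or the DNMT3A library 3 (0.0557 to 0.0800). The call of HP was lost without a filter, with array weights and with the replicate number as a block (0.0652 to 0.112), and on leaving out any library but number 3 of either group (0.0526 to 0.0758).

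Of 16 tested genes listed for the interleukin 6, STAT3 and C/EBP signal, which drives acute phase genes, 3 rose and 1 fell. IL1R1 (log2 0.47, limma adjusted p = 0.00234) and IL1RAP (log2 0.43, limma adjusted p = 0.00551) rose. Both are chains of the interleukin 1 receptor, not of an interleukin 6 receptor. The receptor chain OSMR (log2 0.21, limma adjusted p = 0.0412) rose too. CEBPA fell by 0.96 on the log2 scale (limma adjusted p = 0.00199), while CEBPB (log2 -0.18) and the shared receptor chain IL6ST (log2 0.0050, changing sign between settings) did not pass the test. The call of OSMR was lost without a filter, without a trend and with the block (0.0509 to 0.0793), and on leaving out any of control libraries 1 to 3 and DNMT3A libraries 1, 3 and 4 (0.0734 to 0.110).

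Of 14 liver transcription factors listed for the locus 3 rose and 1 fell. NR0B2, a repressor among the nuclear receptors, rose by 0.65 on the log2 scale (limma adjusted p = 0.000971), FOXA3 by 0.38 (limma adjusted p = 0.0182) and NR5A2 by 0.26 (limma adjusted p = 0.0462). NR2F2 fell by 0.51 on the log2 scale (limma adjusted p = 0.000428). NR1H4, the bile acid receptor, did not pass the test (log2 -0.08). HNF4A was at log2 0.18 and passed the threshold without DNMT3A library 4 (limma adjusted p = 0.0146). FOXA3 lost its call without a filter (0.0632) and without control library 3 (0.0546), and NR5A2 without a filter, with quantile normalization and with the block (0.0650 to 0.118) and without any of 7 libraries, all but DNMT3A library 2 (0.0583 to 0.118).

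Alpha-1 antitrypsin leaves the endoplasmic reticulum on cargo receptors or is disposed of by the degradation pathway there. Of 22 tested genes of that list 3 rose, 0 fell and 19 missed the threshold. The ubiquitin ligase gene SYVN1 rose by 0.45 on the log2 scale (limma adjusted p = 0.00768), the mannosidase-like EDEM3 by 0.40 (limma adjusted p = 0.00733) and the vesicle coat gene SEC24A by 0.25 (limma adjusted p = 0.0382). The call of SEC24A was lost without a filter (0.0939) and without any of 7 libraries, all but DNMT3A library 2 (0.0606 to 0.101). The chaperones CALR and HSPA5 did not pass the test (log2 0.06 and -0.0066); both changed sign between settings. Of 8 genes of chromatin boundaries and cohesin 0 rose and 1 fell, CTCF (log2 -0.27, limma adjusted p = 0.0107). RAD21 and SMC3 of cohesin did not pass the test (log2 -0.06 and 0.03), and both changed sign between settings.

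By likeness of profile over the 8 libraries, measured as the root mean square difference between the deviations of 2 genes from their control means among 10037 other protein-coding genes, SERPINA1 lay nearest to EIF4B (0.0352 on the log2 scale), TSPYL1 (0.0375) and PRKCD (0.0394). SERPINA5 lay nearest to LRRC3 (0.0453), NID1 (0.0478) and TGFBR3 (0.0512). None of the 6 is on chromosome 14, but that chromosome's share of the compared genes was not counted. The measure includes the difference between groups, so genes near SERPINA5 have fold changes like its own by selection. NID1, the gene of the basement membrane protein nidogen 1, went from 33.0 to 44.1 FPKM on average (log2 0.41, limma adjusted p = 0.00544). LRRC3 had a log2 fold change of 0.42 (limma adjusted p = 0.019) and TGFBR3 of 0.35 (limma adjusted p = 0.0354). The calls of both were lost without a filter (0.0726 and 0.109) and on leaving out any of control libraries 2 and 3 and DNMT3A libraries 1 and 3 (0.0521 to 0.0574 for LRRC3 and 0.0848 to 0.0978 for TGFBR3).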

How the data were processed

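RNA was profiled in 4 control and 4 DNMT3A libraries of HepG2 cells, grouped by their titles. The authors deposited FPKM per gene and library. The submitters' processing notes name HISAT2 2.0.5 and the build hg38; how fragments were counted is not given in the sources used here. Further, per the labels' protocols, RNA was selected on poly-T beads. Multiplying FPKM by the deposited gene length gave whole multiples of 1 step, within 0.01, for 100.0% of values, and these multiples are the recovered reads. Median-ratio factors were 1.01 in every library, so the columns were already level on that scale. Library pairs within a group differed by a chi-square of 4.26 to 21.6 per degree of freedom, so none was a duplicate. Pairs across the groups differed by 18.2 to 31.5. The highest pair within a group, DNMT3A libraries 2 and 4, lay inside that range.

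Genes with a mean of at least 1 FPKM were compared as log2(FPKM + 1) with limma 3.58.1 in R 4.3.3 (intensity trend, Benjamini-Hochberg adjustment over 11620 genes, threshold 0.05). For single values the test was an exact permutation over libraries, two-sided. On simulated data for this comparison (11620 genes, 200 changed), 67.8% of log2 changes of 0.5 and 97.6% of 1 were recovered, and 5.05% of calls were false. The changed genes left out those with the fewest reads, and were a far smaller share than the 20.6% called in the data. These rates therefore need not hold for low genes or for the real data. No label says that libraries came from separate cultures; p-values therefore reflect spread among these libraries alone, possibly technical.

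The members and lists were chosen with earlier results of these data known. The rule for named genes took all members, the other SERPINA genes, DNMT3A, tested neighbours within 1 Mb, the 3 nearest profiles, and from each list the most changed called members (at most 4) and the most abundant of the remaining ones (at most 2); HP, HAMP and ORM1 were added after their values were seen. Alternatives were leaving out each library, the replicate number as a block, array weights, a pseudocount of 0.1, omitting the filter or the trend, and quantile or median-ratio scaling; voom on recovered reads (mean of at least 10), a filter at 0.5 FPKM and protein-coding genes only were chosen after seeing the data. The level of 1 marker and the matches of 1 searched promoter motif are not reported here.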

Additional observations from a re-analysis of the deposited data

Results flagged for a closer look

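Values were checked in 158 groups of 4 libraries for a lowest or highest library standing far from the others of its group; chance flags about 1 group in 20, and 8 were found. Among the SERPINA family this was SERPINA12 in control library 4, at 3.77 FPKM beside 2.60 to 2.78 in the other controls. SERPINF2 was at 127 FPKM in DNMT3A library 4 beside 164 to 169.7 in the others of that group. IFI27L1 was at 1.08 FPKM in DNMT3A library 1 beside 1.48 to 1.52, still above every control. NR0B2 was at 59.8 FPKM in DNMT3A library 3 beside 52.5 to 53.2, and SYVN1 at 21.5 FPKM in the same library beside 18.1 to 18.6. NR2F2 was at 8.62 FPKM in control library 2 beside 8.04 to 8.09. The neighbour DDX24 was at 11.8 FPKM in control library 1 beside at least 12.9 in the other controls, and SNHG10 at 5.35 FPKM in control library 2 beside 3.81 to 4.03. None of the 7 members had such a library.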

How the results depend on the processing

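SERPINA5 was the called member in the fit as described, with a pseudocount of 0.1, with quantile scaling and with array weights. The same held without the trend, with the replicate block and among protein-coding genes only. It also held with median-ratio scaling, which with a factor of 1.01 in every library could hardly change a call. Without a filter the 1 called member was SERPINA3. With voom on recovered reads and with a filter at 0.5 FPKM both were called, which makes 2, and leaving out 1 library gave 1 to 2, the 2 being without control library 1. Control library 1 was the lowest for SERPINA3 (0.414 FPKM), and leaving it out lifted the mean of SERPINA3 past the filter. It thus entered that fit through its DNMT3A libraries (mean 1.31 FPKM, beside 0.548 FPKM among all 4 controls). The log2 fold change of SERPINA5 ranged from 0.32 to 0.43 without 1 library and from 0.38 to 0.45 under the other alternatives. That of SERPINA3 was 0.50 to 0.64 without 1 library and 1.12 with a pseudocount of 0.1. SERPINA11 ranged from -0.043 to 0.13 without 1 library, and was -0.022 without control library 2. Other genes that had not passed the test also changed sign without 1 library, on the log2 scale AGT from -0.025 to 0.050, ALB from -0.051 to 0.12, CALR from -0.0021 to 0.12, DICER1 from -0.014 to 0.066, EIF4B from -0.0011 to 0.10, F2 from -0.078 to 0.013, GLRX5 from -0.064 to 0.019, HSPA5 from -0.036 to 0.024, IL6ST from -0.051 to 0.092, PPP4R4 from -0.14 to 0.075, RAD21 from -0.10 to 0.018, SCARNA13 from -0.023 to 0.50, and SMC3 from -0.0047 to 0.069. Of the other settings, quantile normalization gave AGT -0.049, F2 0.014, HSPA5 0.031, RAD21 0.023, GLRX5 0.030; array weights gave F2 0.0024, IL6ST -0.0035, DICER1 -0.015, GLRX5 0.027; voom gave HSPA5 0.016, GLRX5 7.0e-05. IFI27L1 fell under the filter without DNMT3A library 2, 3 or 4, so those settings give it no value. The count of called genes was 2389, with 3756 under array weights and 1491 to 2454 without 1 library; it was 1540 without control library 2 and 1491 without control library 3. With the replicate number as a block 1881 genes were called, and among the members the block changed no call. The numbers pair the libraries by neither label nor data: same-numbered libraries correlated at -0.08 to 0.16, and 1 of 4 controls correlated best with its own number. Across 69 genes and 1230 alternative values, 1130 kept direction and side of the threshold, 62 lost the call, 2 gained it and 36 changed sign. For SERPINA3, which was not in the main fit, the starting side was that of its exact permutation p. Its limma calls under other settings are therefore among the values kept and not among those gained. Reads limit SERPINA3 (33 to 147 per library); counting error alone is small for SERPINA1 (52939 to 72817).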
